A study of Mus musculus with 16 samples.

Results

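The promoters described here carry much H2AK119ub1, a single ubiquitin on a lysine in the tail of histone H2A, and comparatively little H3K27me3, trimethylation of lysine 27 of histone H3, in mesenchymal stromal cells (MSCs) of wild-type mice. They were chosen by those 2 marks: a promoter is the 4 kb centred on a gene start, its H2AK119ub1 level (mean of 2 WT libraries, in CPM, the promoter's count scaled to a fixed library total) lay in the top 20% of autosomal genes, and its H3K27me3 level lay below the 75th percentile. The rule gave 215 of 3789 autosomal genes, out of 3925 genes measured. Every measured gene is marked UP (1904) or DOWN (2021) in the authors' deposited table, and how the authors chose these genes is not given here. Ranks, limits and shares over all genes or promoters therefore hold within that list and not over the genome. The 215 are 28.4% of the 758 H2AK119ub1-rich promoters, and the other 543 carry H3K27me3 above the cut. The H2AK119ub1 limit was 150.2 CPM, with Pex26 (150.2 CPM) and Impa2 (150.4) just inside and Naprt (150.1) and Ctdsp2 (150.2) just outside. The H3K27me3 limit was 121.4 CPM, with Traf5 (120.6) and Vwce (120.8) just inside and Zhx2 (121.5) and Rasa3 (121.6) just outside.

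The cells were MSCs from the endosteum, the inner surface of bone. The WT group was Bap1fl/fl on C57BL/6J, and the cKO group was Prx1-cre;Bap1fl/fl, so both carry the floxed Bap1 allele and only cKO carries the recombinase, which Prx1 regulatory sequence drives in limb mesenchyme and which does not mark MSCs alone. Chromatin immunoprecipitation with sequencing (ChIP-seq) was done for H2AK119ub1, H3K27me3, H3K4me3 and H3K27ac, with 2 libraries for each of the 8 groups of genotype and mark. Age and sex are not given here, and whether the paired libraries of a group stem from different animals is not stated in the labels, so p-values measure the spread between libraries, which may be technical. The libraries titled H3K4me3 have an antibody field naming acetyl-H3K27 and those titled H3K27ac one naming trimethyl-H3K4; both are called here by title. No value for Bap1 itself was analysed here, so the genotype labels were not checked. Of the 8 stromal markers looked for, 6 were measured and none was a member, a list too small for that absence to be read. The WT H3K4me3 level was 612 CPM at Cxcl12, 562 at Pdgfrb, 427 at Col1a2 and 356 at Col1a1, but 23.8 at Ly6a and 18 at Thy1. No haematopoietic, endothelial or neural marker was among the authors' listed genes, so whether such cells were present cannot be told here. In cKO H3K4me3 fell at 5 of the 6 stromal markers (427 to 35.1 CPM at Col1a2 and 562 to 110 at Pdgfrb), and H3K27ac fell at 4. The median log2 change in H3K4me3 was -1.17 (-1.20 relative to the nearest genes). Over all promoters 31.8% fell in H3K4me3 and 29.1% in H3K27ac. The part of this marker shift in the members' changes described below was not tested. Library totals over the measured autosomal windows ran from 1233909 to 9966252 counts, in which each read is counted in about 3 neighbouring bins, and the median member held 104 to 2198 of these counts per library, fewest in H3K27me3.

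H2AK119ub1 is written by Polycomb repressive complex 1 and H3K27me3 by Polycomb repressive complex 2, and the marks often share the promoters of silent developmental genes, where each helps recruit the complex that writes the other. Variant forms of complex 1 also reach promoters that lack H3K27me3. BAP1 is the catalytic subunit of the deubiquitinase that takes ubiquitin off H2AK119, whereas H3K4me3 and H3K27ac mark promoters in use.

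The stretches of DNA below lie at a few members that the results turn on, picked for their values or gene family and not as a sample of the class. Each is the 250 bases before the gene's start in RefSeq (build GRCm38.p6), read 5′ to 3′ on the gene's strand, with CG pairs, the sites of DNA methylation and the landmark of CpG islands, in capitals. They are the member with the highest H2AK119ub1 (Cnih2), members whose active marks rose (Isyna1, Rapgefl1) or fell (Parvb, Rab3a, Twist2) in cKO, and homeobox genes for comparison (Dlx2, Hoxa2).
Cnih2 (chr19:5098522-5098771, minus strand): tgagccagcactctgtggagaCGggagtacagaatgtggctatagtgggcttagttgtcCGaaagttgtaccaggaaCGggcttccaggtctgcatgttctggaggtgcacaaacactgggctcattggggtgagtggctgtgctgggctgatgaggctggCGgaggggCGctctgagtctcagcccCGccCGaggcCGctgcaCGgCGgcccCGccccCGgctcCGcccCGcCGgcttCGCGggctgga
Isyna1 (chr8:70594231-70594480, plus strand): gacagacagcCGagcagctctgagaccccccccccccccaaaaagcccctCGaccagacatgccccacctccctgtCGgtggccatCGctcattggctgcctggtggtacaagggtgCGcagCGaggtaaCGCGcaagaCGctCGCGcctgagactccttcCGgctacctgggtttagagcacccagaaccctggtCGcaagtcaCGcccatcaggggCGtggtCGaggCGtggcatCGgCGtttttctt
Rapgefl1 (chr11:98836535-98836784, plus strand): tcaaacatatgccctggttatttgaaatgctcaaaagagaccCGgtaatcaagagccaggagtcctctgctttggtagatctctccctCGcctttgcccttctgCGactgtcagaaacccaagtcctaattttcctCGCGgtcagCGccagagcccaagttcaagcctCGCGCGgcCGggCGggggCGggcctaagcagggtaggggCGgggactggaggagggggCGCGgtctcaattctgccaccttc
Parvb (chr15:84231793-84232042, plus strand): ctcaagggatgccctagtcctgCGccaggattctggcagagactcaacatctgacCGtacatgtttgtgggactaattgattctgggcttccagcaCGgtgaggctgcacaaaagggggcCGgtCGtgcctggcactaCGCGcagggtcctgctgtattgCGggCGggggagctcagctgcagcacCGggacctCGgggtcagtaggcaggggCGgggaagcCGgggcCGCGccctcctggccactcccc
Rab3a (chr8:70754453-70754702, plus strand): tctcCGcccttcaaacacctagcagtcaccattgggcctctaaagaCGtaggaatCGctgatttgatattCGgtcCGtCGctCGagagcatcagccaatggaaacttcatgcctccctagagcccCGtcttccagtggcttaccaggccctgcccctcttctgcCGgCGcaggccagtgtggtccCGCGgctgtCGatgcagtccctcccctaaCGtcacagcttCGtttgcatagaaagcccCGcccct
Dlx2 (chr2:71546755-71547004, minus strand): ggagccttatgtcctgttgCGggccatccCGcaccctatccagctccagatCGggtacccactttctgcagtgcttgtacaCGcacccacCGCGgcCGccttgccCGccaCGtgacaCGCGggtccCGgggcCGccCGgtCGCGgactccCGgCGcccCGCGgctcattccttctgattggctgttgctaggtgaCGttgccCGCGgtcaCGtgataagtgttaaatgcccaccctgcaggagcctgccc
Twist2 (chr1:91801211-91801460, plus strand): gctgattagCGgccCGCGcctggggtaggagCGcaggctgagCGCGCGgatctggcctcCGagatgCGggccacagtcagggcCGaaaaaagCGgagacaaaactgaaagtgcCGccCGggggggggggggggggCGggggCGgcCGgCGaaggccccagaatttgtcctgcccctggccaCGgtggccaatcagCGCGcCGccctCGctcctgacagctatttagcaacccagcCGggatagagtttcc
Hoxa2 (chr6:52164832-52165081, minus strand): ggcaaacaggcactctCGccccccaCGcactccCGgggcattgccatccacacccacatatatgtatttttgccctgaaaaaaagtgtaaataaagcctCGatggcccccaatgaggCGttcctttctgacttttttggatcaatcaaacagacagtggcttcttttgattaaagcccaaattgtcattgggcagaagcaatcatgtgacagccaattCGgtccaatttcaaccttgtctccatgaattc

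Dlx2 held 24 CG pairs in its 250 bases (66.4% G or C), Twist2 23 (68.8%), Isyna1 19 (64.4%), Cnih2 17 (65.6%), Rab3a 16 (58.8%), Parvb 15 (65.2%) and Rapgefl1 15 (58.8%). Hoxa2 stood apart with 6 CG pairs and 46.4% G or C. Over 32851 RefSeq mouse promoters of the same length the median was 6 CG pairs (quartiles 2 and 16) and 52.4% G or C. The genes whose active marks rose and those whose marks fell thus overlap in CG content among the promoters shown. No such comparison was made over the members as a whole, because a RefSeq promoter was matched for 123 of the 215 (57.2%), too few for the check.

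How the members' H3K27me3 level ranked among autosomal promoters depended on the scale. In WT libraries 158 of 215 (73.5%) lay above the median H3K27me3 level of autosomal promoters, 79.6 CPM, and 7 lay below the 25th percentile. Of the 2626 low-H3K27me3 promoters outside the class, 788 (30.0%) lay above that median. Divided by the WT flank level of their chromosome, 81 (37.7%) and 90 (41.9%) of the members lay above the median in the 2 libraries. The rule capped this mark in the same libraries, which lowers such shares. No lack of H3K27me3 is therefore read from them. The median member had 84.3 and 96.3 CPM of H3K27me3 in the 2 WT libraries, while the median H2AK119ub1-rich promoter with H3K27me3 had 246 CPM ± 23.6 (SD, n = 2). The shape of the signal was described too, although the rule limited the central 4 kb in these same libraries and so favours a low centre. In WT the 4 kb around their gene starts held 37.3% ± 0.105 (SD, n = 2) of the H3K27me3 counts of the whole 10 kb window, where an even spread gives 40%, against 51.9% ± 0.889 at the rich promoters with H3K27me3. Per base, the ratio of the central 4 kb to the outer 1 kb on each side was 0.875 ± 0.0136 for H3K27me3 at the members and 1.79 ± 0.0893 at the rich promoters with it. Low-H3K27me3 promoters outside the class had much the same shape, with 36.7% ± 0.239 and a ratio of 0.861 ± 0.0119. The low centre is therefore not particular to the members. H2AK119ub1 was raised at the centre in both classes, by a ratio of 1.29 ± 0.0784 at the members and 1.36 ± 0.108 at the others, and also stood high in the outer parts, with 64.5 CPM ± 0.575 at the members and 42.5 CPM ± 1.32 at low-H3K27me3 promoters outside the class. The members are therefore called here H2AK119ub1-rich promoters below the H3K27me3 limit.

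**Figure D1:**
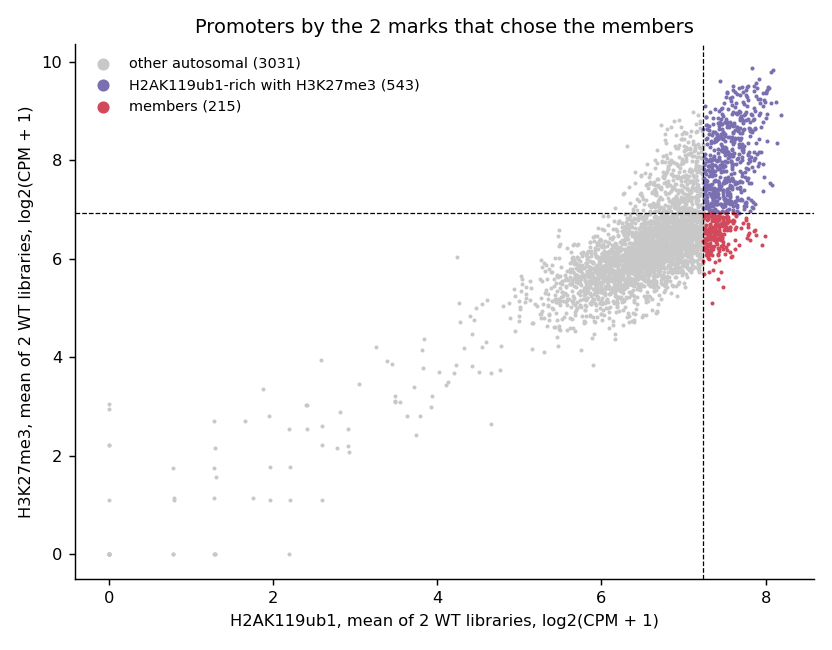
WT level of H2AK119ub1 (x axis) and of H3K27me3 (y axis) at each autosomal promoter, both as log2(CPM + 1) of the mean of 2 libraries, with the 2 limits as dashed lines. The members fill the corner right of 150.2 CPM and below 121.4 CPM and join the cloud of the other promoters without a gap.

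**Figure D2:**
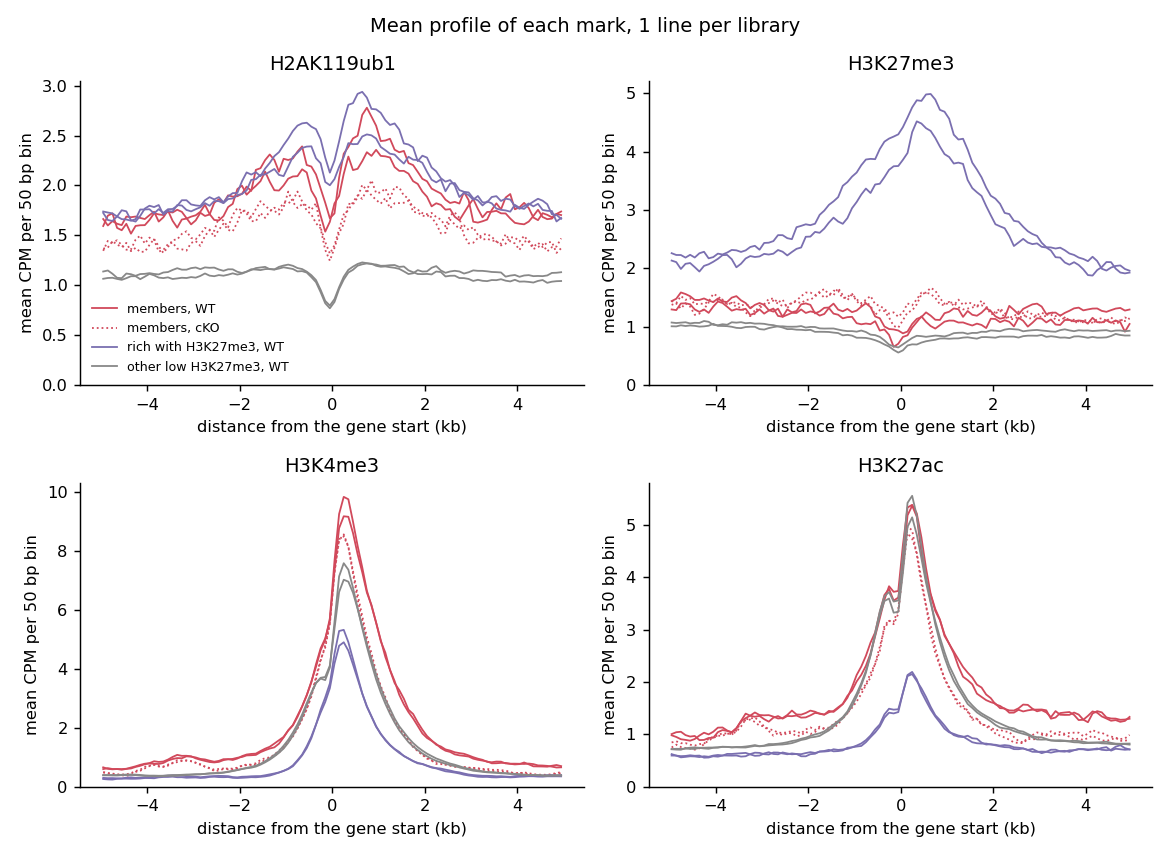
Mean signal per 50 bp bin (CPM) against distance from the gene start (kb) for the 4 marks, 1 line per library: members in WT (solid red) and cKO (dotted red), H2AK119ub1-rich promoters with H3K27me3 in WT (purple) and other low-H3K27me3 promoters in WT (grey). In WT H3K27me3 is lower in the central 4 kb than in the outer parts at the members and in the grey class, and it peaks in the purple class. H3K4me3 and H3K27ac peak in all 3 classes.

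Membership went with the chromosome a gene lies on. Chromosome 8 gave 45 of its 211 genes (21.3%), chromosome 19 gave 19 of 135 (14.1%), chromosome 15 gave 22 of 161 (13.7%) and chromosome 6 gave 25 of 203 (12.3%). Chromosomes 4, 7 and 9 gave none of 323, 327 and 216 genes. The outer 1 kb flanks of the windows, which the rule did not use, moved with this in every WT library: relative to the median chromosome, chromosome 8 stood at 1.14 to 1.41 over the 8 WT libraries of all 4 marks, chromosome 15 at 1.17 to 1.29 and chromosome 19 at 1.16 to 1.36, whereas chromosome 4 stood at 0.613 to 0.659 and chromosome 7 at 0.603 to 0.654. Across the 19 autosomes the share of members followed the WT flank level of H2AK119ub1 with Pearson r = 0.930, a description over chromosomes whose values come from the same libraries. The 7 chromosomes with an H2AK119ub1 flank level above 1.1 held 155 members (72.1%) and 33.9% of the genes measured, and the 5 below 0.9 held 6 members (2.79%) and 32.8% of the genes.

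The cKO libraries had another chromosome pattern. Chromosome 4 stood at 0.871 to 1.13 and chromosome 7 at 0.841 to 1.07 in the 8 cKO libraries, chromosome 11 at 1.16 to 1.55 against 0.929 to 1.01 in WT, and chromosome 16 at 0.621 to 0.817 against 0.851 to 0.962. The same rule applied to the cKO libraries took 417 promoters, of which 61 were members (28.4% of the members and 14.6% of the cKO set), and 35.0% of the 340 genes on chromosome 11 were among them. Dividing each level by its chromosome's flank level before the choice gave 200 promoters, 99 of them members (46.0% of the members). Of those 200 promoters, 9 lay on chromosome 8, 13 on chromosome 4 and 17 on chromosome 7. What these chromosome-wide levels owe to DNA copy number, cell mixture or library preparation was not tested, and input libraries were not used here; the main counts and most genes named for their active marks below are therefore also given relative to a gene's 20 nearest measured genes on its chromosome. This regional scale subtracts from a gene's log2 change the median change of those genes' 10 kb windows in H3K27me3 (in H2AK119ub1 where H3K27me3 itself is the mark), so the same regional shift is taken off H3K4me3, H3K27ac and H2AK119ub1.

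**Figure D3:**
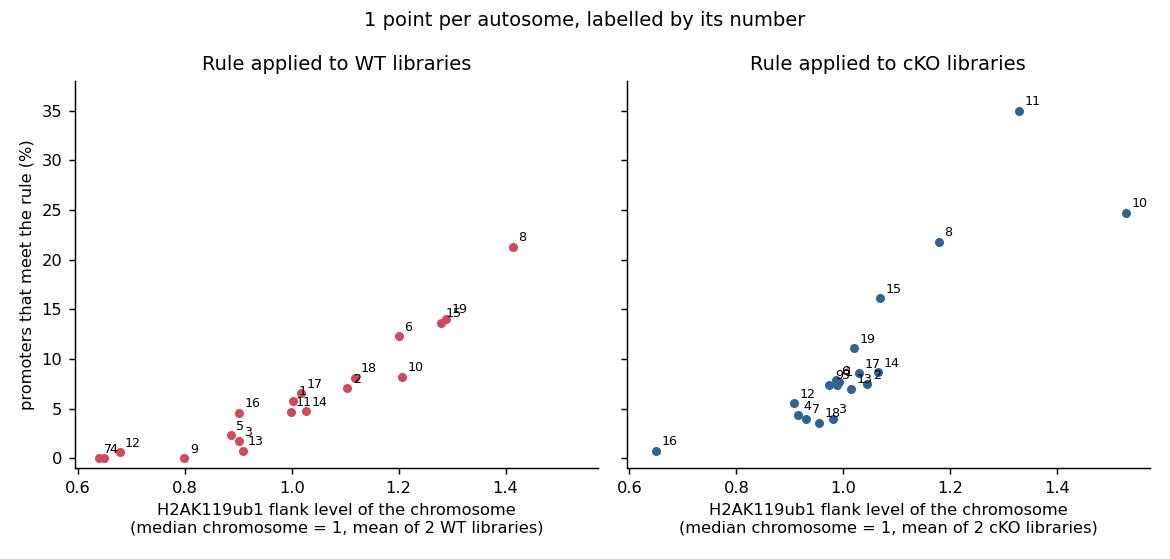
Share of each autosome's measured promoters that meet the rule (y axis, %) against its H2AK119ub1 flank level relative to the median chromosome (x axis, mean of 2 libraries), with the rule applied to WT libraries on the left and to cKO libraries on the right, 1 point per autosome. On the left chromosome 8 is highest (21.3%) and chromosomes 4, 7 and 9 lie at 0, and on the right chromosome 11 is highest (35.0%).

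In WT cells the members carried more of both active marks than the H2AK119ub1-rich promoters with H3K27me3. The median member had 287.8 and 287.4 CPM of H3K4me3 in the 2 WT libraries and 193 and 192 CPM of H3K27ac. Rich promoters with H3K27me3 had 100.5 CPM ± 2.52 (SD, n = 2) and 62.8 ± 2.68, and low-H3K27me3 promoters outside the class 214 ± 0.937 and 162 ± 2.43. The libraries of these classes did not overlap in either mark, but no test was made, since promoters are not replicates. In the 2 WT libraries 86 and 87 members (40.5% of all in the second) were in the top 20% of autosomal promoters by H3K4me3, and 59 and 62 (27.4% and 28.8%) by H3K27ac. Of the rich promoters with H3K27me3, 40 and 46 (7.4% and 8.5%) were in the top 20% by H3K4me3. Divided by chromosome flank levels, the members' shares in the top 20% were 28.8% in both libraries for H3K4me3 and 17.2% and 16.7% for H3K27ac. For the 200 promoters chosen relative to the flanks they were 22.5% and 23.5% for H3K4me3 and 10.5% and 11% for H3K27ac, so the raised share in H3K27ac was lost on that scale.

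The members were not uniform: the mean WT level of H3K4me3 ran from 15.4 to 836 CPM and that of H3K27ac from 36.2 to 1020. Those of highest H2AK119ub1, with WT replicate 1 given before replicate 2, were Cnih2, which encodes an auxiliary subunit of AMPA receptors (268 and 239 CPM), Atoh8, a basic helix-loop-helix factor (289 and 206), Wnt10b, a Wnt ligand that favours osteoblast formation (244 and 227), and Ifi30, a lysosomal thiol reductase (262 and 203). Arhgef25 (250 and 195), Gse1 (240 and 202), Il12rb1, a cytokine receptor subunit (209 and 231), and Cnn2, a calponin (266 and 169), followed. Their active marks spanned the range, from 35.2 and 40.4 CPM of H3K4me3 at Il12rb1 and 52.2 and 68.4 at Cnih2 to 657 and 613 at Cnn2. Of the members, 45 had another member within 100 kb and 15 shared part of their 4 kb with another gene, so neighbouring members are not separate evidence.

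In cKO cells the active marks fell at more members than they rose. H3K4me3 fell at 122 members and rose at 52 (edgeR quasi-likelihood, adjusted p at or under 0.05), with a median log2 change of -0.33. Of all promoters tested, 31.8% fell and 40.5% rose, with a median of 0.04, so that 56.7% of members lower stands above the background and 24.2% higher below it. H3K27ac fell at 108 members (50.2%) and rose at 33 (15.3%), with a median of -0.41, against 29.1% lower and 30.9% higher over all promoters and a median of 0.00. The median member's H3K4me3 was 287.8 and 287.4 CPM in the WT libraries and 216 and 221 CPM in the cKO libraries, and its H3K27ac was 193 and 192 against 130 and 133, so that for both marks the cKO libraries lay below the WT ones.

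This excess of lower promoters was smaller once regional levels were taken into account. Relative to the 20 nearest genes, H3K4me3 was lower at 79 members (36.7%) and higher at 76 (35.3%), with a median of -0.04 (over all promoters 23.3% lower, 39.3% higher and a median of 0.10). H3K27ac was lower at 75 (34.9%) and higher at 45 (20.9%) on that scale, with a median of -0.14 (22.8% lower and 28.1% higher over all promoters, median 0.08). Of the first calls, 75 lower and 49 higher were kept in H3K4me3 and 11 turned, and in H3K27ac 71 and 28 were kept and none turned. Among the 200 promoters chosen relative to the flanks, H3K4me3 was lower at 72 and higher at 81 with a median of 0.05. This was near the 0.04 over all promoters as fitted, of which 31.8% were lower and 40.5% higher. H3K27ac was lower at 70 and higher at 56 of the 200 with a median of -0.11, beside 29.1% and 30.9% over all promoters. On chromosome 15 H3K4me3 was lower at 19 of 22 members and higher at none, and H3K27ac was lower at 20. The median change there was -0.77 over members and -0.39 over all promoters in H3K4me3, and -0.84 and -0.47 in H3K27ac, so that the members' medians lay below those of their chromosome. On chromosome 11 H3K4me3 was higher at 12 of 16 members and lower at 3, with a median of 0.85 over members and 0.67 over all promoters. Calls among all promoters of chromosomes 15 and 11 were not counted, so only the medians set these members beside their chromosome. The authors marked 18 of the 22 members on chromosome 15 DOWN and 4 UP, and 4 of the 16 on chromosome 11 DOWN and 12 UP. What the members' medians owe to this mix was not tested.

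**Figure D4:**
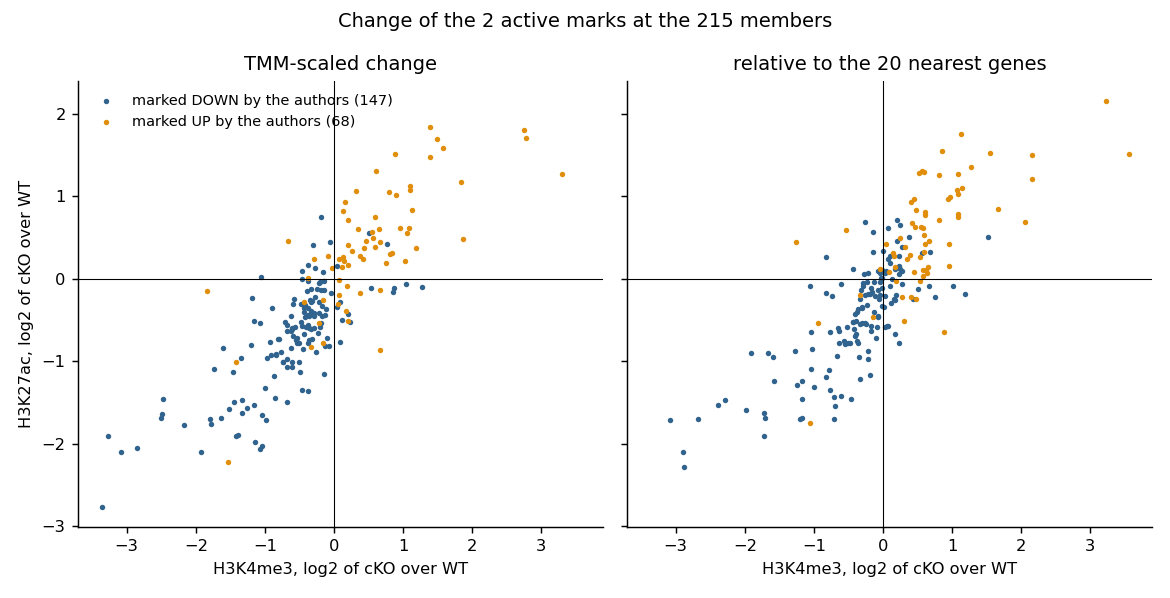
log2 change of cKO over WT in H3K4me3 (x axis) and H3K27ac (y axis) at each member, 1 point per promoter coloured by the authors' mark UP or DOWN, as fitted on the left and relative to the 20 nearest genes on the right. The cloud is centred below 0 as fitted (medians -0.33 and -0.41) and near 0 in H3K4me3 on the relative scale (median -0.04).

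The calls of the 2 active marks were set side by side at each member. They both fell at 94 members and both rose at 30, H3K4me3 alone fell at 28 and rose at 20, H3K27ac alone fell at 12 and rose at 3, and 26 had neither call. Both fell at 43.7% of members and 22.5% of all promoters tested in both marks, and both rose at 14% and 28.0%. Relative to the 20 nearest genes both fell at 60 members (27.9%, against 15.8% of all) and both rose at 41 (19.1%, against 24.0%). At Col4a2, a chain of basement membrane collagen, and Adamts4, a protease that cleaves aggrecan, H3K4me3 rose while H3K27ac fell, a pair named after their values were seen. Across members the log2 changes of the 2 marks correlated at r = 0.836 (n = 215), and across all autosomal promoters at r = 0.822 (n = 3789), a description over genes that share libraries. The authors' deposited table marks each gene UP or DOWN by a contrast not given in the sources used here. Of the members 147 (68.4%) were marked DOWN, against 51.2% of autosomal genes: H3K4me3 fell at 116 of these (78.9%, against 58.2% of all genes marked DOWN) and rose at 7 (4.76%, against 8.84%). Among the 68 marked UP it rose at 45 (66.2%, against 74.1% of all genes marked UP) and fell at 6 (8.82%, against 3.59%). Relative to the 20 nearest genes H3K4me3 fell at 75 (51.0%, against 42.8% of all genes marked DOWN) and rose at 20 (13.6%, against 13.1%) of those marked DOWN. Of those marked UP it rose at 56 (82.4%, against 67.1% of all genes marked UP) and fell at 4 (5.88%, against 2.54%). The rising share of members marked UP thus lay below that of all genes marked UP as fitted, and above it on the regional scale.

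The members of lowest p among those that fell in H3K4me3 were Hoxc13, Wnt10b, Thbd, Smoc2, Loxl3 and Dok1. Hoxc13, a homeobox gene of hair and nail formation (chr15:102919103-102923102, plus strand), had 644 and 639 CPM of H3K4me3 in WT and 49.6 and 65.9 in cKO, a log2 change of -3.35 ± 0.10 (SE, edgeR adjusted p = 4.6e-230). Its H3K27ac was 242 and 292 in WT and 45.9 and 32.0 in cKO (-2.76 ± 0.21, adjusted p = 2.7e-13), so neither mark's groups overlapped. At Wnt10b (chr15:98776144-98780143, minus strand) H3K4me3 was 335 and 372 CPM in WT and 38.3 and 39.6 in cKO (-3.08 ± 0.12, adjusted p = 2.9e-128). The same gene's H3K27ac was 201 and 212 against 42.1 and 53.7 (-2.11 ± 0.20). Both genes kept their call relative to the 20 nearest genes, by -2.88 and -2.67 in H3K4me3.

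Thbd, the thrombin receptor thrombomodulin (chr2:148406189-148410188, minus strand), had 381 and 342 CPM of H3K4me3 in WT and 36.8 and 32.9 in cKO (-3.28 ± 0.13, edgeR adjusted p = 6.8e-142), and its H3K27ac fell by 1.91 on the log2 scale. Smoc2, a secreted calcium-binding matrix protein (chr17:14277506-14281505, plus strand), had 403 and 415 against 49.8 and 83.4 CPM of H3K4me3 (-2.50 ± 0.11), and its H3K27ac fell by 1.64. In both genes every cKO library lay below every WT library in both marks. Loxl3, a lysyl oxidase that cross-links collagen, and Dok1, an adaptor of receptor signalling, start on opposite strands of chromosome 6 within a shared window, and their reads cannot be told apart: H3K4me3 went from 861 and 812 CPM to 272 and 311 at Loxl3 (-1.41 ± 0.07) and H3K27ac from 562 and 528 CPM to 133 and 157. On the regional scale the H3K4me3 changes of Thbd, Smoc2 and Loxl3 were -3.09, -2.39 and -1.21, all still called.

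In H3K27ac the lowest p-values among falling members also took in Parvb, beta-parvin of focal adhesions, Rab3a, a small GTPase of vesicle release, and Krt7, an epithelial keratin. H3K27ac at Parvb was 445 and 454 CPM in WT and 97.2 and 123 in cKO (-2.03 ± 0.16, edgeR adjusted p = 1.3e-12), and its H3K4me3 fell by 1.04. Rab3a had 310 and 339 against 79.3 and 84.3 CPM (-1.98 ± 0.17) and its H3K4me3 fell by 1.14. Krt7 differed from the rest in having little H3K4me3 in WT, 28.7 and 33.7 CPM, beside H3K27ac of 246 and 227 that fell to 48.8 and 51.8 (-2.23 ± 0.19). Its library values did not overlap in either mark. The H3K27ac changes of Parvb, Rab3a and Krt7 were -1.69, -1.54 and -1.75 on the regional scale and kept their calls.

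The members of lowest p among those that rose in H3K4me3 were Cdo1, Isyna1, Arhgef25, Socs3, Rapgefl1 and Limd2. Cdo1, cysteine dioxygenase of taurine synthesis, had 29.1 and 28.0 CPM of H3K4me3 in WT and 275 and 250 in cKO (3.31 ± 0.15, edgeR adjusted p = 1.5e-109), and H3K27ac of 53.2 and 43.2 against 124 and 107 (1.27 ± 0.23). Isyna1, which makes inositol phosphate (chr8:70592481-70596480, plus strand), had 41.0 and 37.0 against 262 and 235 CPM of H3K4me3 (2.78 ± 0.14, adjusted p = 8.2e-83), and H3K27ac of 81.9 and 81.3 against 251 and 281 (1.71 ± 0.17). Both were far below the median member in WT H3K4me3, and their rise was larger relative to the 20 nearest genes (3.55 and 3.22). Arhgef25 (chr10:127188037-127192036, minus strand) started higher, at 294 and 357 CPM of H3K4me3, and reached 777 and 817 (1.39 ± 0.07), with H3K27ac of 164 and 210 against 499 and 539 (1.47 ± 0.15). Neu1, the lysosomal sialidase, had 87.0 and 87.4 against 229 and 201 CPM of H3K27ac (1.31 ± 0.18). On the regional scale Arhgef25 stood at 1.28 in H3K4me3 and Neu1 at 1.55 in H3K27ac, both called.

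The other rising members of lowest p all lay on chromosome 11, whose flanks were also higher in cKO. Socs3, an inhibitor of cytokine signalling, had 485 and 452 CPM of H3K4me3 in WT and 962 and 887 in cKO (1.09 ± 0.07), which was 0.58 relative to the 20 nearest genes, and its H3K27ac change of 0.61 was 0.10 on that scale and no longer called. Rapgefl1, a relative of Rap exchange factors, had 136 and 108 against 346 and 328 CPM of H3K4me3 (1.57 ± 0.10, and 0.97 on the regional scale). Limd2, a LIM domain protein, had 159 and 139 against 493 and 567 CPM of H3K27ac (1.84 ± 0.15, and 1.26 on that scale). Evpl, envoplakin of the epidermal cell envelope, had 37.2 and 35.2 against 135 and 116 CPM of H3K27ac (1.80 ± 0.23, and 1.21 on that scale). At these 4 genes the cKO libraries lay above the WT libraries in both marks, and each change that was called on both scales was smaller on the regional one.

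Some members came from the gene lists for this tissue, which were drawn up with earlier results of these data known. Of the lists' genes 12 were members: homeobox and other developmental factors Dlx2, Emx2, Twist2, Hoxa2, Hoxc10 and Hoxc13, the niche factors Angpt1 and Kitl, the adipogenic factor Cebpb, and the Wnt genes Wnt10b, Fzd7 and Tcf7l1. H3K4me3 fell at 9 of these, rose at 1 (Hoxa2) and passed no threshold at 2, and H3K27ac fell at 9 and rose at none, with 3 not called; relative to the 20 nearest genes, 7 fell and 3 rose in H3K4me3 and 6 fell and none rose in H3K27ac. Of the 5 Hox genes measured 3 were members, and over the 5 H3K4me3 was lower at 3 and higher at 1. The whole developmental factor list had 10 higher and 6 lower of 23 measured genes in H3K4me3, with 3 members and 10 rich promoters with H3K27me3 among them. The Wnt, BMP and Notch list had 17 higher and 6 lower of 27, with 3 members and 13 rich promoters with H3K27me3. Of 16 niche genes 8 were lower and 3 higher in H3K4me3, and of 9 osteoblast genes 8 were lower and none higher. Beside each of these lists, 31.8% of all promoters were lower and 40.5% higher in H3K4me3, and 29.1% and 30.9% in H3K27ac. Relative to the 20 nearest genes these shares were 23.3% and 39.3% in H3K4me3, and 22.8% and 28.1% in H3K27ac. Of all members 56.7% were lower in H3K4me3 and 50.2% in H3K27ac as fitted, and 36.7% and 34.9% relative to the 20 nearest genes. None of 10 Polycomb and BAP1 machinery genes, 8 cell cycle genes, 6 chondrocyte genes or 2 housekeeping genes was a member. Members were 215 of 3789 autosomal genes, so nothing is read from their absence in lists this small.

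Angpt1, the Tie2 ligand made by niche stroma (chr15:42674978-42678977, minus strand), had 476 and 470 CPM of H3K4me3 in WT and 180 and 165 in cKO (-1.35 ± 0.09, edgeR adjusted p = 9.4e-48), and its H3K27ac fell by 0.95. Kitl, the stem cell factor gene (chr10:100013630-100017629, plus strand), had 551 and 527 against 387 and 387 CPM of H3K4me3 (-0.37 ± 0.08) and its H3K27ac fell by 0.56 ± 0.18. Both niche genes stayed lower relative to the 20 nearest genes, by -1.05 and -0.57 in H3K4me3. Twist2, a mesenchymal basic helix-loop-helix factor, had 551 and 547 against 318 and 317 CPM of H3K4me3 (-0.69 ± 0.08), and H3K27ac fell by 0.97. Fzd7, a Wnt receptor, had 548 and 541 against 354 and 373 CPM of H3K4me3 (-0.48 ± 0.08). Twist2 and Fzd7 stood at -0.41 and -0.30 in H3K4me3 on the regional scale, both called.

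Other list members depended on the scale or mark. Hoxc10, a posterior limb patterning gene, had 701 and 685 against 385 and 353 CPM of H3K4me3 (-0.81 ± 0.07, and -0.33 on the regional scale), and its H3K27ac change of -0.72 was -0.24 on that scale and not called. At Emx2, a limb girdle and forebrain homeobox gene, H3K4me3 was 774 and 828 against 569 and 614 CPM (-0.33 ± 0.07), but 0.18 on the regional scale, the opposite direction. Tcf7l1, a Wnt pathway repressor, fell by 0.37 in H3K4me3, a change of -0.02 on the regional scale that was not called. Dlx2, a homeobox gene of craniofacial skeleton, had overlapping H3K4me3 (164 and 173 against 154 and 180 CPM) and lower H3K27ac (117 and 124 against 69.8 and 71.9 CPM, -0.76 ± 0.20). Cebpb passed the test in neither mark (H3K4me3 -0.15, H3K27ac -0.26, and 0.35 on the regional scale in H3K4me3, which was called). At Hoxa2, a hindbrain and neural crest patterning gene with little H3K4me3, that mark went from 32.9 and 32.0 to 49.6 and 53.0 CPM (0.77 ± 0.24, edgeR adjusted p = 0.0023).

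**Figure D5:**
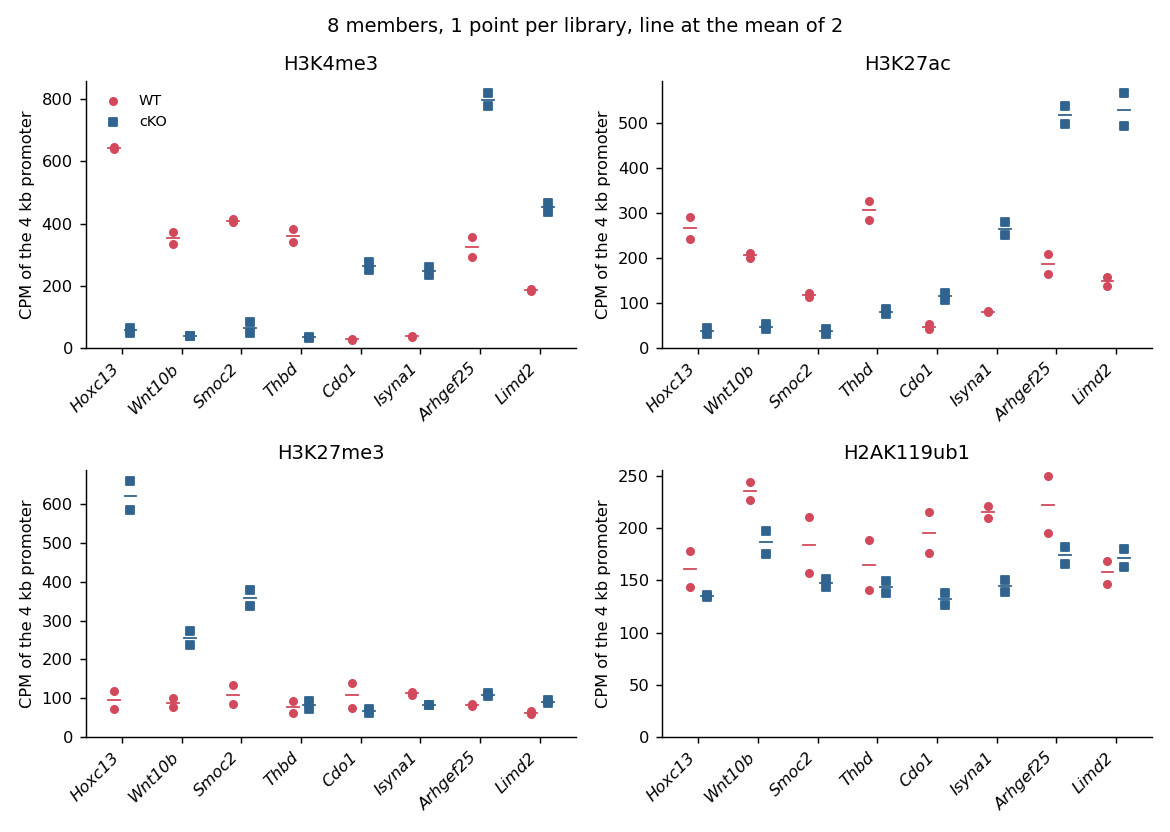
CPM of the 4 kb promoter (y axis, linear) in each mark at 8 named members (x axis), 1 point per library, WT as red circles and cKO as blue squares, with a line at the mean of 2. At Hoxc13 and Wnt10b the H3K4me3 values of cKO lie far below those of WT while those of H3K27me3 lie above, and at Isyna1 the H3K4me3 values of cKO lie above.

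The 2 marks that chose the members are given next as values only, because their WT libraries chose the members. The median member's H2AK119ub1 was 177 and 163 CPM in WT and 136 and 132 in cKO, a median log2 difference of -0.35. By the same fit 56 members were lower and 6 higher in cKO, beside 16.4% lower and 16.7% higher over all promoters, and relative to the 20 nearest genes 17 were lower and none higher, beside 5.48% and 6.56%. Choosing on the WT libraries favours lower cKO values, so nothing is read from these counts, and without cKO replicate 1 the lower count was 1. In the cKO libraries 89 members (41.4%) were still among the top 20% by H2AK119ub1. The largest differences with separate libraries were lower at Vwce (210 and 155 CPM in WT, 66.2 and 101 in cKO), Carmil2, a regulator of actin capping (153 and 181 against 73.9 and 90.2), Cnih2 (268 and 239 against 118 and 135) and Acrbp, a sperm acrosome protein (151 and 162 against 79.5 and 78.9). They were higher at Lrrc45, a centrosomal protein (177 and 137 against 241 and 255), Socs3 (181 and 147 against 251 and 252), Evpl (148 and 153 against 217 and 228) and Coasy, coenzyme A synthase (185 and 127 against 208 and 248). These 4 higher genes all lie on chromosome 11, and the differences there were within 0.10 of 0 on the log2 scale relative to the 20 nearest genes.

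To keep the choice apart from the comparison, the rule was also applied to 1 WT library of each mark and the cKO libraries were set against the other WT library. The 250 promoters chosen on WT replicate 1 had a median of 177 CPM of H2AK119ub1 in that library, 153 in WT replicate 2, and 139 and 134 in cKO. H2AK119ub1 fell at 29 of them and rose at 16 (edgeR adjusted p at or under 0.05), beside 11.5% and 14.5% over all promoters, with a median log2 change of -0.16. The 235 chosen on WT replicate 2 had 161 CPM in that library, 159 in WT replicate 1, and 134 and 130 in cKO, and 52 fell and 11 rose, beside 14.7% and 13.3%, with a median of -0.33. Relative to the 20 nearest genes these counts became 4 lower and 7 higher, beside 3.08% and 5.39% over all promoters, and 15 lower and 2 higher, beside 5.16% and 4.64%. The lower count of the first choice was near or below the background on both scales. With 1 WT library the spread rests on the 2 cKO libraries, and the lone WT library is taken to vary like them.

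H3K27me3 at the members spread in both directions in cKO. The median member had 84.3 and 96.3 CPM in WT and 96.7 and 89.9 in cKO, overlapping ranges, and 31 members were higher and 13 lower, beside 12.4% and 15.6% over all promoters. Relative to the 20 nearest genes 43 were higher and 2 lower, beside 9.71% and 11.7%. The rule capped WT H3K27me3 in these libraries and so favours higher cKO values, and nothing is read from these counts. In cKO the central 4 kb held 42.5% ± 0.956 (SD, n = 2) of the window's H3K27me3, against 37.3% ± 0.105 in WT, where the rule limited the centre. Over all autosomal promoters it held 42.8% in cKO and 43.6% in WT. In the cKO libraries 52 members (24.2%) lay in the top 25% of promoters by this mark, about the share of promoters in general. With the choice made on 1 WT library, H3K27me3 against the other WT library rose at 35 and fell at 17 of the 250 promoters, beside 11.2% and 12.1% over all promoters, and rose at 30 and fell at 17 of the 235, beside 11.5% and 16%.

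Hoxc13, Impa2, Pycr1 and Maf had the largest H3K27me3 differences upward among named members with separate libraries. They were picked for that difference in a mark whose WT level the rule capped. Whether higher H3K27me3 goes with falling active marks is therefore not read from them. Hoxc13 had 72.9 and 118 CPM of H3K27me3 in WT and 659 and 584 in cKO, Impa2, an inositol monophosphatase, 44.6 and 76.9 against 245 and 291, Pycr1, an enzyme of proline synthesis, 51.1 and 117 against 265 and 299, and Maf, a basic leucine zipper factor, 89.1 and 87.8 against 327 and 261. Smoc2 (133 and 85.5 against 338 and 380), Wnt10b (77.8 and 99.4 against 236 and 273) and Kitl (126 and 72.3 against 336 and 248) also had higher values in both cKO libraries. H2AK119ub1 was closer between genotypes, with 144 and 178 against 134 and 136 CPM at Hoxc13 and 174 and 149 against 186 and 172 at Kitl. At Pycr1 H3K4me3 rose from 87.9 and 105 to 136 and 124 CPM (0.53 ± 0.14), unlike at Hoxc13, and the active marks of Impa2 and Maf are not described here. Thbd lost most of its active marks with overlapping H3K27me3 (91.6 and 60.6 against 70.9 and 92.0 CPM). On the regional scale the H3K27me3 differences were 2.92 at Hoxc13, 1.96 at Maf, 1.79 at Smoc2, 1.75 at Wnt10b, 1.20 at Kitl and 1.04 at Pycr1. The largest differences downward were at Nudt22 (85.1 and 139 against 55.9 and 41.1 CPM), Fut11, a fucosyltransferase (105 and 83.9 against 59.0 and 29.3), Rom1, a photoreceptor disc protein (95.6 and 113 against 32.0 and 71.1), and Meak7 (113 and 120 against 56.5 and 59.3). These H3K27me3 levels rest on the smallest counts of the 4 marks, a median of 104 to 154 per member and library.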

How the data were processed

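ChIP-seq of 4 histone marks was analysed in 2 WT and 2 cKO libraries for each mark, grouped by title. The authors deposited read counts in 50 bp bins over 10 kb around 3925 gene starts, with genes marked UP or DOWN, per the file headers. Tools listed in the submitters' processing notes, with build GRCm38, are Bowtie2 2.4.5 (aligner), cutadapt 1.18 (trimming), bedtools 2.30.0, SAMtools 1.9 and Picard 2.25.5; their settings were not stated. Isolated single-count runs were 3 bins long in 98.2% of cases, so that 1 read enters about 3 bins and the counts overstate the reads; 1 bin in 3 holds 413035 to 3326053 counts per library. A count covers the listed windows, so a change common to all of them cannot be seen.

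Counts of the 80 central bins were summed per promoter and divided by the autosomal total (CPM). Each mark was fitted over all promoters with edgeR 4.0.16 (R 4.3.3, glmQLFit robust, quasi-likelihood test), with TMM factors from autosomal 10 kb windows, filterByExpr with a minimum count of 10, and Benjamini-Hochberg adjustment at 0.05; all 215 members passed the filter. "Rose" and "fell" refer to this test. The regional scale subtracts the median log2 change of the 20 nearest measured genes at least 4 kb away, read in their 10 kb windows of H3K27me3 (H2AK119ub1 for H3K27me3). The script was tested on simulated data. Symbols came from RefSeq positions within 500 bp, which named 181 members.

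Members and lists were chosen with earlier results of these data known. Named genes were the 8 of highest WT H2AK119ub1, for each active mark the 6 of lowest p in each direction with separate libraries, for each choosing mark the 4 of largest change in each direction, members in the lists, and the 2 genes on each side of both limits. Alternatives were library totals, TMM from promoters, DESeq2 1.42.0, no filter, bins within 1 kb, 1 bin in 3, each library left out, the replicate number as a block, the relative scale, shared windows left out and other membership limits; membership relative to chromosome flanks and without chromosome 8 were added after seeing the data. Where a list or the split choice is discussed, no set test was made.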

Additional observations from a re-analysis of the deposited data

How the results depend on the processing

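Libraries that share a replicate number did not deviate together (correlations of -0.02, -0.04, 0.09 and 0.06 in H2AK119ub1, H3K27me3, H3K4me3 and H3K27ac), so the number names a library only. With the replicate number as a block, H3K4me3 was lower at 123 members and higher at 52, H3K27ac lower at 110 and higher at 33, H2AK119ub1 lower at 58 and higher at 7, and H3K27me3 higher at 29 and lower at 10. Over all promoters with the block, H3K4me3 was lower at 1256 and higher at 1592 of 3905, and H3K27ac at 1158 and 1224 of 3892. H2AK119ub1 was lower at 623 and higher at 642 of 3889, and H3K27me3 at 568 and 453 of 3883.

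The excess of members with lower active marks kept its direction under other scalings, DESeq2, no filter, bins within 1 kb, 1 bin in 3 and without any library, and depended on chromosome-wide levels. The median H3K4me3 change, -0.33, was -0.43 with library totals, which move the median of all promoters from 0.04 to -0.06, -0.41 with TMM from promoters, -0.39 with DESeq2, -0.22 within 1 kb and -0.29 without chromosome 8, and from -0.35 to -0.28 with a library left out. It was -0.040 relative to the 20 nearest genes (79 lower), 0.046 with membership relative to flanks (81 higher, 72 lower) and 0.18 with both (90 higher, 56 lower). The median H3K27ac change, -0.41, was -0.44 with TMM from promoters, -0.32 within 1 kb, and -0.46 to -0.35 with a library left out. It was -0.14 relative to the 20 nearest genes, -0.11 with membership relative to flanks (56 higher, 70 lower) and -0.0036 with both (60 higher, 63 lower). The 13 promoters in the top 10% by H2AK119ub1 and below the median H3K27me3 had H3K4me3 lower at 9 and higher at 0 (median -0.46) and H3K27ac lower at 8 and higher at 0 (median -0.74). Beside all these counts, as fitted 31.8% of all promoters were lower and 40.5% higher in H3K4me3, and 29.1% and 30.9% in H3K27ac. Relative to the 20 nearest genes the shares were 23.3% and 39.3% in H3K4me3, and 22.8% and 28.1% in H3K27ac. The top 10% alone gave 62 members and the median H3K27me3 limit alone 57.

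In the choosing marks counts moved more. Over all promoters H2AK119ub1 was lower at 636 and higher at 651 as fitted, at 340 and 267 within 1 kb, and at 213 and 255 relative to the 20 nearest genes. Calls thus fell in general in these settings. For the members H2AK119ub1 was lower at 21 and higher at 1 within 1 kb, at 17 and 0 relative to the 20 nearest genes (median -0.10), at 4 and 0 in the 13 promoters, higher at 13 with membership relative to flanks, and lower at 18 and higher at 0 with both (median -0.13). With a library left out the lower count ran from 1 (without cKO replicate 1) through 5 (without cKO replicate 2) and 35 (without WT replicate 1) to 58, and the higher count from 0 (without either cKO replicate) to 8; over all promoters the lower count went from 636 to 19 and 121 without cKO replicate 1 and 2, so calls were lost in general. H3K27me3 was lower at 5 with library totals, 4 with DESeq2, 6 within 1 kb, 2 relative to the 20 nearest genes, 4 with both relative settings, and 2 (without cKO replicate 2), 3 (without cKO replicate 1), 8 and 9 with a library left out. Over all promoters the lower count of H3K27me3 was 604 as fitted, 541 with library totals, 516 with DESeq2, 458 within 1 kb and 455 relative to the 20 nearest genes. In the 13 promoters H3K27me3 was higher at 3 and lower at 0. Its median, 0.02, was 0.23 relative to the 20 nearest genes, 0.18 with both, -0.0075 in the 13 promoters, and -0.010 without WT replicate 1, -0.011 without cKO replicate 1, up to 0.12 without WT replicate 2.

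For promoters chosen on WT replicate 1, H2AK119ub1 was higher at 8 with DESeq2, 8 within 1 kb and 7 on the relative scale, and lower at 45 with TMM from promoters and 4 on the relative scale. Chosen on WT replicate 2, it was higher at 3 with DESeq2, 3 within 1 kb and 2 on the relative scale, and lower at 27 and, on the relative scale, 15. H3K27me3 in the first choice was higher at 22 with DESeq2 and lower at 4, within 1 kb at 8 and on the relative scale at 7; in the second it was lower at 2, 9 and 7. Apart from H2AK119ub1 on the relative scale, the shares over all promoters in these split settings are not given here, so nothing is read from the counts. The cause of these differences was not tested.

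Over 45 pairs of named gene and active mark, 554 alternative values kept their call or their lack of one, 13 lost and 9 gained a call, and 3 turned, all relative to the 20 nearest genes: Cebpb H3K4me3 (0.35), Emx2 H3K4me3 (0.18) and Emx2 H3K27ac (0.12). Direction was not compared where neither fit gave a call. With 2 libraries in each group and about 100 counts per member in H3K27me3, small changes in that mark were not detectable.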
